A study of Mus musculus with 9 samples.

Results

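Yolk sacs of mouse embryos that lacked both copies of Rnh1 (KO, Rnh1 -/-) were compared with wild-type yolk sacs (WT, Rnh1 +/+) at embryonic day 9.5. The comparison took 6 of the 9 arrays of the study, 3 KO and 3 WT. The other 3 arrays, from heterozygous yolk sacs (HET, Rnh1 +/-), entered the estimate of the spread between arrays, the filter on dim genes and the choice of probe set. It covered every gene with a probe set that names it alone, 19933 genes, of which 13207 were bright enough to be tested and 6726 were too dim. Embryos of all genotypes were on the same mixed SV 129/C57BL/6 background and none was treated. According to the labels, yolk sacs were taken free of maternal tissue, and the RNA was amplified, labelled with biotin and measured on Affymetrix gene arrays. Embryo sex, pooling of yolk sacs and whether replicates came from separate animals are not in the labels. The p-values therefore measure the spread between these samples.

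At this stage the yolk sac is the embryo's organ of uptake. Its outer layer, the visceral endoderm, takes up maternal protein and lipid by endocytosis, breaks them down in lysosomes, and secretes serum proteins and lipoproteins toward the embryo, much as gut, kidney and liver do later. Its inner layer is mesoderm, which forms the first blood vessels and the blood islands where primitive red cells mature. The product of Rnh1 is the ribonuclease inhibitor, found inside cells, where it binds ribonucleases of the secreted type and keeps them inactive.

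Rnh1 itself stood at 10.39, 10.42 and 10.32 (log2 signal) on the WT arrays and at 6.28, 6.78 and 6.87 on the KO arrays. The genotypes were far apart, a 13.3-fold decrease (limma adjusted p = 4.61e-06), with KO 1 under the filter on dim genes, which lay at 6.35 to 6.57 depending on the array. It had the smallest p of all genes tested. The two-sided exact permutation p of 3 against 3 arrays was 0.1, the smallest such a design can give. The labels do not say which part of the gene was deleted, nor where the probe set lies in it.

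With both copies missing, many genes listed for endoderm metabolism, for transport and for the red cell surface were lower. Many immediate early genes, short structured RNAs and mesoderm regulators were higher. Among all 13207 genes tested, 1092 (8.27%) were higher and 2009 (15.2%) lower in KO by limma at an adjusted p under 0.05, and these shares are the background for every count given here. Most changes were small: their median size was 0.39 (log2), or 1.31-fold, with 25 genes higher and 74 lower by at least 2-fold. The share of lower genes among those called was 64.8% on the deposited values, 81.4% after median centring of the arrays and 56.9% after quantile normalization. The median of all genes moved from -0.005 to -0.072 and 0.005 under these scalings. Without WT 1 the counts were 514 and 1155, without WT 2 they were 628 and 1135, and without WT 3 they were 703 and 1709. Bright genes were lower more often than dim ones: when the genes were ranked by mean level into 4 bins of equal size, 24.1% of the brightest bin fell and 5.21% rose, against 4.94% and 7.15% of the dimmest.

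A set of 38 gene lists, combined into 6 groups with 1666 distinct genes (1210 tested), was used to describe the comparison by function. The groups were endoderm metabolism, transport, red cell, early response, short RNA and mesoderm, and 35 genes belonged to more than 1 of them. In total 317 of the tested genes fell and 166 rose. The lists, their members and the direction counted for each group were chosen with earlier results of these data known. A share above the background therefore describes a list and is no test of it. All changes are log2 differences of KO minus WT with the standard error (SE) from limma, n = 3 arrays per genotype, and gene levels are log2 signals that are compared between arrays and not between genes. Since whole tissue was measured, fewer cells of a type and less RNA per cell cannot be told apart. Genes were named by a rule set out with the methods. Further list members, given only by their change or to follow a pathway, were named after their values were seen.

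**Figure D1:**
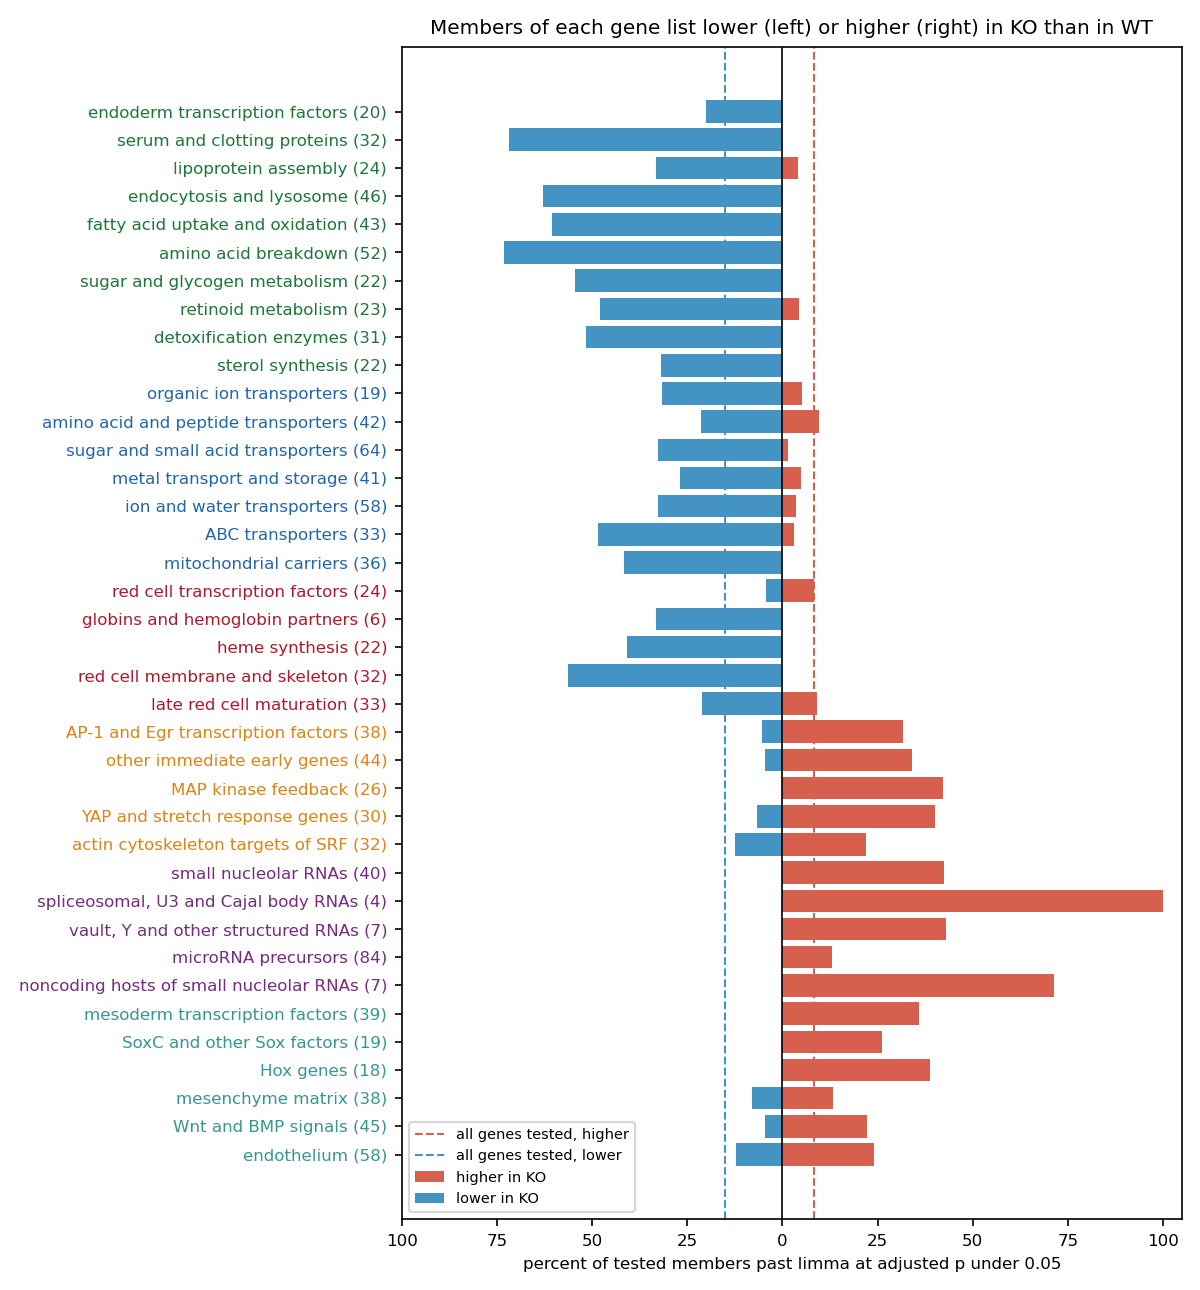
Percent of the tested members of each of the 38 lists that were lower (bars to the left) or higher (bars to the right) in KO (limma, adjusted p below 0.05), with the number tested in brackets and list names coloured by group. Dashed lines mark the shares of all genes tested, 15.2% lower and 8.27% higher: amino acid breakdown reached 73.1% lower, and all 4 spliceosomal, U3 and Cajal body RNAs tested were higher.

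The tissue label and the presence of other cells were checked with marker lists. All 17 yolk sac markers were above the filter, with list means of 12.14 to 12.21 on the WT arrays and 12.04 to 12.15 on the KO arrays. Parietal endoderm, the neighbouring membrane-secreting layer, had list means of 10.23, 9.48 and 10.63 on WT 1 to 3 and 9.40 to 9.67 on the KO arrays, so WT 1 and WT 3 stood above all others. Of its 17 genes 4 fell, among them Pga5 (-1.37 ± 0.23), against 13 without WT 2, 1 without WT 1 or without KO 2, and 2 without KO 3. Of 24 trophoblast genes 11 were dim on all 9 arrays and none of the 11 tested passed. Their list mean was highest on KO 3 (6.85, against 6.18 to 6.36 on WT), where the defining marker Tpbpa stood at 7.84 and the neural marker Sox2 at 7.46, against 5.90 and 5.65 or less on the other WT and KO arrays. Without KO 1, 4 of the trophoblast genes were higher. Uterine decidua genes had means of 7.70 to 8.15 on WT and 7.97 to 8.30 on KO. Of 13 tested 2 rose, Des and Hand2, which also belong to the early response and mesoderm groups, and Gjb2 was lower by 0.36, a call lost without any 1 array other than KO 1 or KO 3. Its hormone gene Prl8a2 was at 8.90 to 11.34 on these arrays. Embryo genes had means of 6.07 to 6.29 on WT and 6.19 to 6.58 on KO. All 9 tested lay above 0 and 2 rose, the heart gene Myl7 (0.75, lost without WT 2 or KO 3) and En1 (0.29, lost without any 1 array other than WT 3 or KO 1). Leaving out KO 1 gave 3 higher, WT 2 or KO 3 gave 0, and any HET array, WT 1 or KO 2 gave 1. Of 16 genes of adult maternal blood, 13 were dim on all 9 arrays. Of 12 tested macrophage genes 3 fell, with Mrc1, the mannose receptor, lower by 1.29 ± 0.25 (SE), and without WT 2 only 1 fell. The median of this list was -0.02, with 7 genes below 0 and 5 above, and its member Cd68 stood at -0.01 and did not pass. The part of these cells in the results was not tested, and the counts of each group without WT 1, WT 3 or KO 3 are given with it.

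Sex-linked transcripts were unevenly spread. Xist, made by the inactive X chromosome, stood at 5.69 on WT 1 and at 10.65 to 11.67 on the other WT and KO arrays, and the Y-linked Eif2s3y stood at 4.34 on WT 3 and 4.41 on KO 3, against 7.27 to 8.81 on the other WT and KO arrays. Among these arrays Xist and Eif2s3y were both high on WT 2 (10.65 and 8.15), KO 1 (11.05 and 7.62) and KO 2 (11.06 and 7.27). Whether these samples held RNA of both sexes was not tested. Of 410 X-linked genes tested 23.2% fell and 4.15% rose, against 15.0% and 8.38% of autosomal genes. With the Xist level as a covariate 657 genes were higher and 1359 lower, and with Eif2s3y 1023 and 1768.

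**Figure D2:**
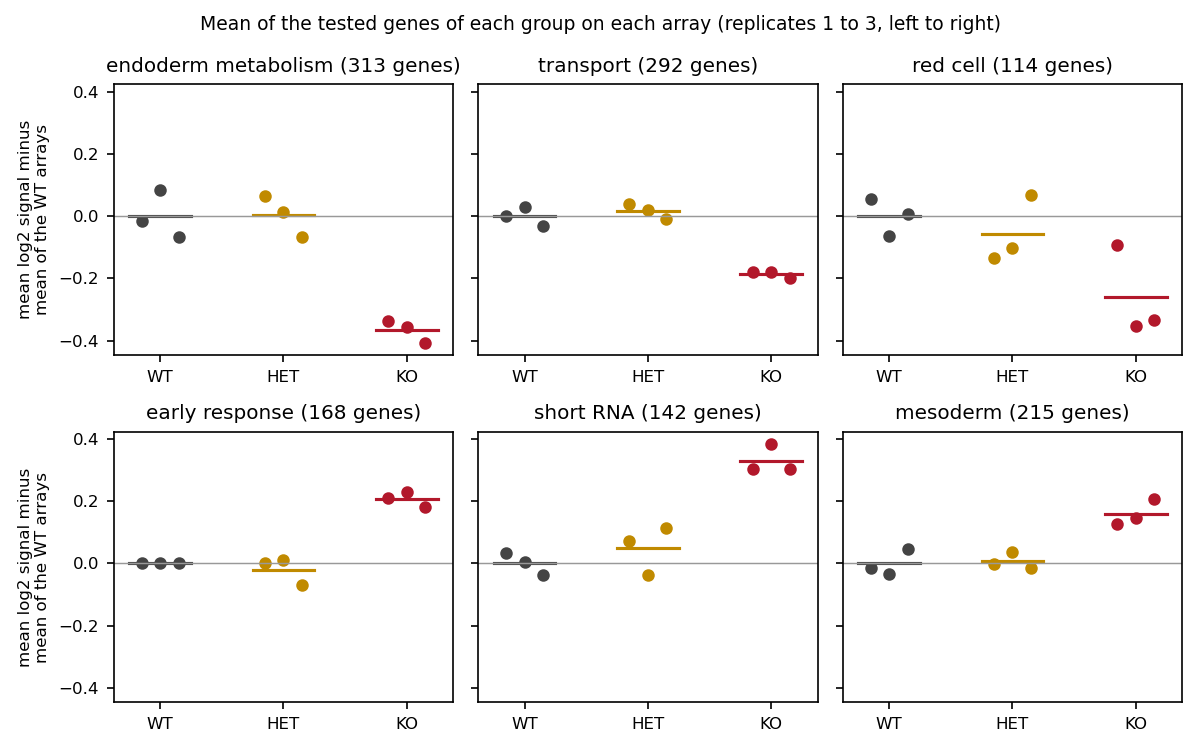
Mean log2 signal of the tested genes of each group on each array, less the mean of the 3 WT arrays; dots are arrays and lines are genotype means. In endoderm metabolism and transport all 3 KO arrays lay below all WT and HET arrays, and in early response, short RNA and mesoderm above them, whereas in the red cell group KO 1 lay close to WT 2.

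Endoderm metabolism was the group with the largest share of falling genes. Of its 378 genes 313 were tested, 174 (55.6%) fell and 2 rose, with a median of -0.33. Of the 174 that fell, 4 were above the filter on no KO array and were tested only through the WT and HET arrays. The WT arrays had group means of 9.68, 9.78 and 9.63 and the KO arrays of 9.36, 9.34 and 9.29, without overlap. Leaving out WT 1 gave 129 lower genes, WT 2 gave 126, WT 3 gave 161 and KO 3 gave 150.

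Most of the transcription factors listed for the endoderm did not pass. Hnf4a, a master regulator of liver and endoderm genes, stood at 11.56, 11.63 and 11.47 in WT and 11.43, 11.52 and 11.21 in KO (-0.17 ± 0.09, limma adjusted p = 0.199), and Gata4 at 10.37, 10.22 and 10.54 against 10.42, 10.38 and 10.13. Both genes overlapped between the genotypes and did not pass. Of 20 factors tested 4 fell, 16 did not pass and the list median was -0.08. The factor that fell most was Ppargc1a, a coactivator of mitochondrial and fasting genes, from 8.33, 8.65 and 8.11 to 7.38, 7.42 and 7.15 (-1.04 ± 0.17, adjusted p = 0.0042). Creb3l3, a membrane-bound regulator of lipid genes in liver and gut, fell by 0.50 ± 0.11 (adjusted p = 0.0118). Tfec was lower by 0.50 ± 0.12, a call lost without WT 2. Nr1h4 fell from a mean of 6.90 to 6.12, under the filter on all KO arrays, so that its decrease is at least 1.3-fold.

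Secreted plasma proteins fell in 23 of 32 cases, with a median of -0.48. The fibrinogen chain gene Fga went from 10.87, 10.93 and 10.65 to 9.80, 9.98 and 9.60, a 2.03-fold decrease (adjusted p = 0.00171), and the other chain genes Fgg (-0.94) and Fgb (-0.32) were also lower. Habp2, a protease of plasma, fell by 0.84 ± 0.09 (adjusted p = 0.00132), and with it prothrombin F2 (-0.69), factor X F10 (-0.50), the inhibitors antithrombin Serpinc1 (-0.60) and heparin cofactor Serpind1 (-1.16), and kininogen Kng1 (-1.22). Fgb did not pass without any 1 WT or HET array. Trf, the iron carrier transferrin, stood at 12.63, 12.72 and 12.61 in WT and at 12.13, 12.24 and 12.07 in KO (-0.51 ± 0.07). Of the defining genes of the list, alpha-fetoprotein Afp fell by 0.33 ± 0.06 from 13.02, 13.08 and 13.02, and transthyretin Ttr differed by -0.22 ± 0.08 without passing (adjusted p = 0.0905).

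Lipoprotein assembly covers the apolipoproteins and the enzymes that load them. Of 24 tested 8 fell and 1 rose, with a median of -0.24, and 5 fell without WT 1 or without WT 2. Apoa4, an apolipoprotein of absorbed fat, fell from 12.76, 12.86 and 12.72 to 11.97, 12.24 and 12.06 (-0.69 ± 0.08, adjusted p = 0.00132), and Mttp, which loads lipid onto apolipoprotein B, fell by 0.41 ± 0.07. Dgat2, an enzyme of triglyceride synthesis, fell by 0.31 ± 0.06. Apob itself stood at 12.65, 12.69 and 12.60 in WT and 12.53, 12.53 and 12.44 in KO, and did not pass (adjusted p = 0.154). The scavenging receptor gene Lrp1 rose by 0.47 ± 0.11, a call lost without WT 3.

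Endocytosis and lysosome genes include uptake receptors, the proton pump and hydrolases. Cubn and Lrp2, the large uptake receptors cubilin and megalin, stood at -0.16 each and did not pass (adjusted p = 0.162 and 0.358). Amn, cubilin's membrane partner, stood at -0.12 and did not pass either. The scavenger receptor Stab2, also counted below with the vessel genes as a gene of sinusoidal endothelium, fell by 1.09 ± 0.18. Of 46 genes tested 29 fell and 0 rose (18 without WT 1 or without WT 2). Of the subunits of the proton pump that acidifies lysosomes, Atp6v1a fell from 11.61, 11.66 and 11.59 to between 10.90 and 11.12, a difference of -0.61 ± 0.07 (adjusted p = 0.00128). Atp6v1b2 (-0.44) and the accessory subunit Atp6ap1 (-0.46) fell as well, as did the hydrolases Lipa (-0.57), Glb1 (-0.63), Ctsb (-0.41) and Ctsl (-0.28). The aspartic protease gene Ctse had the largest decrease after Rnh1 among the genes ranked for naming, from 9.77, 9.72 and 9.68 to 7.23, 7.33 and 8.52. KO 3 stood above the other KO arrays, and with WT 2 and KO 1 left out together the call was lost.

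Fatty acid genes of both uptake and oxidation fell, 26 of 43 tested with 0 higher and a median of -0.36. At entry, the fatty acid translocase Cd36 fell from 8.61, 8.99 and 8.51 to 7.59, 6.48 and 7.04 (-1.66 ± 0.24), the acyl-CoA synthetase and carrier Slc27a2 by 1.57 ± 0.21, and the intracellular binding protein Fabp2 by 1.02. In mitochondria the trifunctional protein genes Hadha (-0.48) and Hadhb (-0.61), the thiolases Acaa2 (-0.69 ± 0.07) and Acat1 (-0.93 ± 0.08) and the dehydrogenase Acadm (-0.48 ± 0.09) fell, and in peroxisomes the bifunctional enzyme Ehhadh (-1.06). Acat1 stood at 10.47, 10.73 and 10.44 in WT and at 9.66, 9.57 and 9.63 in KO, with an adjusted p of 0.00102. Cpt1a, which gates entry into mitochondria, stood at 7.71, 8.24 and 7.63 against 7.33, 7.51 and 7.39 and just missed the test (-0.45 ± 0.14, adjusted p = 0.0509).

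Amino acid breakdown had the largest share of falling genes among the lists of endoderm metabolism, 38 of 52 tested (73.1%) with 0 higher and a median of -0.45. In the tyrosine pathway Hgd, which opens the ring of homogentisate, fell from 9.35, 9.76 and 9.28 to 7.35, 7.90 and 7.50 (3.67-fold, adjusted p = 0.00112). The enzymes of the following steps, Gstz1 (-0.60) and Fah (-0.91 ± 0.12), fell too. In the kynurenine pathway of tryptophan, Kynu fell from 10.11, 10.34 and 9.90 to 8.94, 8.99 and 8.77 (2.32-fold, adjusted p = 0.00102), with Kmo (-0.65) and Haao (-0.91). Aass, the first enzyme of lysine breakdown, fell by 0.95 ± 0.10, and the cysteine dioxygenase gene Cdo1 by 0.98. The branch that carries propionate into the citric acid cycle fell at its carboxylase subunits Pcca (-0.68) and Pccb (-0.46) and at the mutase Mmut (-0.63).

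Sugar and glycogen genes fell in 12 of 22 cases (median -0.31). The liver-type glycogen synthase Gys2 fell from 6.78, 7.44 and 6.87 to 5.45, 5.68 and 5.89 (-1.36 ± 0.17, adjusted p = 0.00177), where the KO values lie below the filter, so that the decrease is at least 1.42-fold, and the phosphorylase Pygl that undoes its work fell by 0.89. Galm, a sugar mutarotase, fell by 0.71 ± 0.09 and Renbp, an epimerase of amino sugars, by 0.80 ± 0.09. The gluconeogenic gene Pck1 was near the filter in both genotypes (0.11 ± 0.12, adjusted p = 0.54), and Fbp1 was too dim to test.

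Retinoid genes cover the carriers and enzymes of vitamin A. Of 23 tested 11 fell and 1 rose, with 6 lower without WT 1 or without WT 2 and 7 without KO 2 or without KO 3. Adh1, an alcohol dehydrogenase that oxidises retinol, fell from 9.06, 9.38 and 8.77 to 7.85, 7.76 and 7.49 (-1.37 ± 0.20, adjusted p = 0.00256), as did Rdh12 (-0.73 ± 0.11) and the intestinal-type carrier Rbp2 (-0.77 ± 0.12). The plasma carrier Rbp4 stood at -0.15 ± 0.07 and did not pass. Crabp1, which binds retinoic acid in embryonic mesenchyme, was at 8.37, 8.18 and 8.69 in WT and 9.73, 8.71 and 10.27 in KO. Its rise of 1.16 ± 0.35 passed in full and without KO 2, and was lost when any other array was left out.

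Of 31 detoxification genes 16 fell, 0 rose and all 31 lay below 0, with a median of -0.39. Fmo1, a flavin monooxygenase, stood at 12.11, 12.39 and 12.09 in WT and at 10.70, 11.03 and 11.01 in KO, a 2.43-fold decrease (adjusted p = 0.00102). Ephx2, an epoxide hydrolase, fell by 1.21 ± 0.12 and the aldo-keto reductase Akr1c19 by 1.47 ± 0.17, whereas the glutathione transferase Gstm1 fell by 0.38 ± 0.08. In sterol synthesis 7 of 22 genes fell (median -0.18), a count of 3 without WT 1, WT 2 or KO 2. These included the squalene synthase Fdft1 (-0.41 ± 0.07), while the next enzyme, Sqle, stood at 0.16 ± 0.11 and did not pass.

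**Figure D3:**
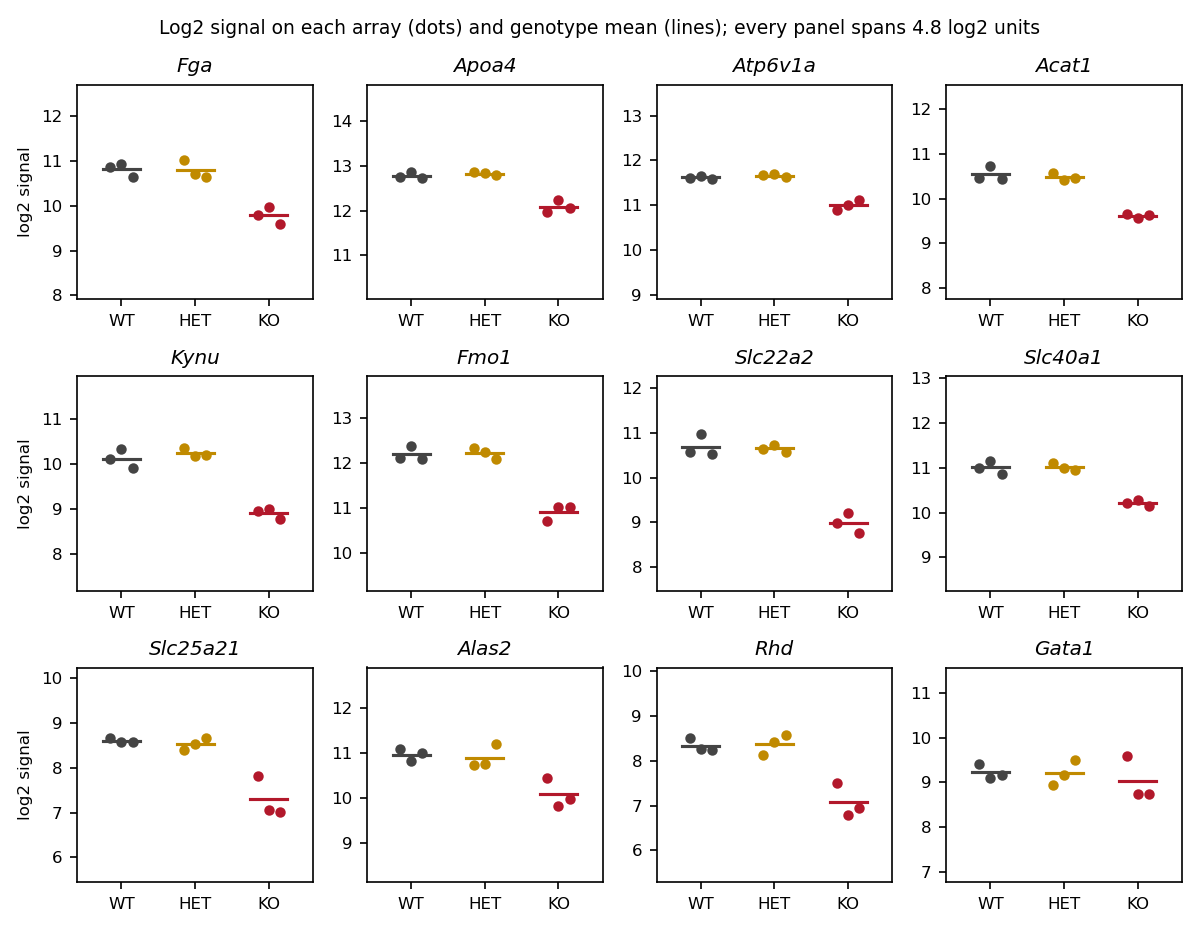
Log2 signal of 12 genes of endoderm metabolism, transport and the red cell group on each WT, HET and KO array (dots) with genotype means (lines), each panel spanning the same range. In every panel but that of Gata1 the 3 KO dots lie below all WT dots. KO 1 is the highest KO dot in the panels of the red cell genes Alas2, Rhd and Gata1, and also in those of Acat1 and Slc25a21.

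Transport covers carriers, channels and pumps. Of 399 genes 292 were tested, 96 (32.9%) fell and 11 rose, with a median of -0.15. Of the 96 that fell, 3 were above the filter on no KO array and were tested only through the WT and HET arrays. The group mean lay between 8.97 and 9.03 on the WT arrays and between 8.80 and 8.82 on the KO arrays. Lower genes numbered 62 with WT 2 left out, 64 with WT 1, 89 with WT 3 and 77 with KO 3, and leaving out KO 1 gave 21 higher, WT 1 gave 4, WT 2 gave 6 and KO 2 or HET 1 gave 7.

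The largest decreases were in carriers of organic cations. Slc22a2, the basolateral cation transporter of kidney, fell from 10.57, 10.97 and 10.53 to 8.98, 9.22 and 8.77 (3.25-fold, adjusted p = 0.000991). Slc47a1, the exporter that works at the opposite face of the same cells in kidney, fell from 9.08, 9.47 and 8.90 to 7.53, 7.59 and 7.57 (2.99-fold, adjusted p = 0.00102). The organic anion carriers Slco4c1 (-0.84 ± 0.11) and Slc22a6 (-0.73) also fell. Only 19 of 40 organic ion transporters were bright enough to test, of which 6 fell and 1, Slc22a17, rose (0.44 ± 0.08).

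Amino acid transporters fell in 21.4% of cases and rose in 9.52%, against 15.2% and 8.27% of all genes tested. Among the carriers of absorptive brush borders, Slc6a18 (-0.70), Slc6a20b (-0.71 ± 0.12) and Slc7a9 (-0.62) fell, and Slc6a13, a carrier of taurine and GABA, fell from 9.08, 9.23 and 8.73 to 8.23, 7.77 and 7.92. The glutamine carrier of growing cells, Slc1a5, rose from 8.76, 8.81 and 8.75 to 9.37, 9.21 and 9.06 (0.44 ± 0.09, adjusted p = 0.0101). Slc7a6 and Slc7a3, carriers of cationic amino acids, were higher by 0.35 and 0.41. The call of Slc7a6 was lost without WT 1, WT 2, KO 1 or KO 2 (adjusted p up to 0.0813), and that of Slc7a3 without any 1 array other than WT 1 (adjusted p up to 0.129). Of 42 tested 9 fell and 4 rose, with 14 lower without KO 1 and 1 or 2 higher without any 1 array other than KO 1. Of the defining genes of the list, Slc7a7 differed by -0.25 ± 0.13 without passing (adjusted p = 0.192), and Slc3a1 was too dim to test.

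Among sugar carriers, Slc2a2, the glucose carrier of liver and gut, fell from 11.99 ± 0.04 to 11.45 ± 0.10 (mean ± SD, n = 3; -0.54 ± 0.07, adjusted p = 0.00171), and Slc5a1, the sodium-coupled glucose carrier, fell by 1.03. Slc2a1, the general glucose carrier, stood at 13.12, 13.10 and 13.11 in WT and 13.06, 13.06 and 13.08 in KO, near the highest values of the arrays, and did not pass (adjusted p = 0.538). Of 64 transporters of sugars and small acids 21 fell, among them the lysosomal sialic acid exporter Slc17a5 (-0.76 ± 0.08). Slc16a3, the lactate exporter of glycolytic cells, was higher by 0.83 ± 0.23, with KO 1 (9.66) near WT 3 (9.55), and lost its call without any 1 WT array, KO 2 or KO 3.

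Among metal carriers, Slc40a1, the iron exporter ferroportin, fell from 11.01 ± 0.15 to 10.21 ± 0.07 (mean ± SD, n = 3; 1.73-fold, adjusted p = 0.00127), and Slc11a2, which imports iron, by 0.45. The zinc importer Slc39a4 fell from 11.78, 11.83 and 11.71 to 11.20, 11.08 and 10.87. The zinc exporter Slc30a1 rose by 0.27 ± 0.06, a call lost without WT 1 or WT 3. Of 41 metal genes 11 fell and 2 rose, with 17 lower without KO 1 and 7 without KO 2.

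Water and ion transport fell in 19 of 58 genes with 2 higher (10 lower without WT 1 and 12 without WT 2). Aqp11, an intracellular water channel, fell by 0.63 ± 0.09, and the phosphate carrier Slc34a3 by 0.59 ± 0.10. Both rising genes, Fxyd5 (0.55 ± 0.08) and Fxyd6 (0.30 ± 0.08), encode small regulators of the sodium pump, whose subunit gene Atp1b1 stood at -0.20 and did not pass. The call of Fxyd6 was lost without WT 1, WT 2 or KO 3.

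Export pumps of the ABC family fell in 16 of 33 cases with 1 higher, counts of 10 lower without WT 1 and 9 without WT 2. Abcb11, the bile salt pump, fell from 7.61 ± 0.37 to 6.46 ± 0.01 (mean ± SD, n = 3), where the KO values are at the level of the filter, and the conjugate pumps Abcc2 (-0.64 ± 0.09) and Abcc4 (-0.55 ± 0.08) fell as well. Abcg2, which exports porphyrins and drugs, fell by 0.66 ± 0.11. Mitochondrial carriers fell in 15 of 36 genes with 0 higher (8 without WT 1, 7 without WT 2). Slc25a21, the carrier of 2-oxoadipate from lysine and tryptophan breakdown, fell from 8.67, 8.58 and 8.57 to 7.82, 7.06 and 7.01 (2.48-fold, adjusted p = 0.0026). The adenine nucleotide carriers Slc25a4 and Slc25a5 fell by 0.25 and 0.24.

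Red cell genes differed between the KO arrays. Of 119 genes 114 were tested, 36 (31.6%) fell and 5 rose, with a median of -0.20. The group mean was 9.81, 9.69 and 9.76 in WT and 9.66, 9.40 and 9.42 in KO, so that KO 1 lay next to WT 2 while KO 2 and KO 3 stood apart. Leaving out KO 1 gave 55 lower genes, KO 2 gave 21 and KO 3 gave 26, while leaving out WT 1 gave 20, WT 2 gave 27 and WT 3 gave 23. It was also 20 with the Xist level as a covariate and 64 with array weights.

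Regulators of red cell fate were in most cases not past the test. Of 24 tested 2 (8.33%) rose, 1 (4.17%) fell and 21 did not pass, against 8.27% and 15.2% of all genes tested. The list median was 0.01. Gata1, the erythroid master factor, stood at 9.41, 9.09 and 9.17 in WT and at 9.59, 8.74 and 8.75 in KO (-0.19 ± 0.23, adjusted p = 0.552), with KO 1 the highest of all. Klf1, which drives late erythroid genes, stood at 9.70, 9.34 and 9.62 against 9.45, 8.92 and 9.01 (-0.43 ± 0.16, adjusted p = 0.0899). The cofactors Ldb1 (0.36 ± 0.08) and Tcf3 (0.46 ± 0.08) rose, and Ikzf1 was lower by 0.70, a call lost without WT 1, WT 3, KO 2 or KO 3.

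The membrane and its skeleton held the largest share of falling genes, 18 of 32 with 0 higher and a median of -0.47 (9 without WT 1, 11 without WT 3, 10 without KO 2). The blood group gene Rhd fell from 8.50, 8.27 and 8.25 to 7.50, 6.80 and 6.95 (2.39-fold, adjusted p = 0.00258). Add2, an adducin that joins spectrin to actin, fell from 9.12 ± 0.22 to 8.10 ± 0.14 (mean ± SD, n = 3; 2.03-fold, adjusted p = 0.00285), and the skeleton genes Epb42 (-1.01) and Sptb (-0.70) fell as well. The anion exchanger Slc4a1 was lower by 0.62 ± 0.19, but KO 1 (11.80) overlapped WT 2 (11.79), and the call was lost without any 1 WT array, KO 2, KO 3, HET 1 or HET 2.

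Heme synthesis fell in 9 of 22 genes with 0 higher and a median of -0.34. The 9 include the exporter Abcg2, also counted above with the ABC pumps. Alas2, the erythroid form of the first enzyme, stood at 11.09, 10.82 and 10.99 in WT and at 10.45, 9.82 and 9.97 in KO (-0.89 ± 0.18, adjusted p = 0.00884). Fech, the last enzyme, fell by 0.76 ± 0.13, from 10.86, 10.76 and 10.79 to 10.38, 9.99 and 9.77. Alas1, the form used outside red cells, also fell, by 0.41 ± 0.07. Of 6 globin and hemoglobin partner genes tested 2 fell, Bpgm and Hbb-y, with a median of -0.16. Leaving out KO 1 gave 4 lower, and leaving out any of the other arrays gave 1. Hba-x stood at -0.12 (adjusted p = 0.199), and Hbb-y at -0.20 passed at 0.0481, a call that only the omission of KO 1 left standing (adjusted p up to 0.128). Both globin genes lay between 13.10 and 13.41 on the WT and KO arrays, near the highest value of the arrays (13.9).

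Among late maturation genes 7 of 33 (21.2%) fell and 3 (9.09%) rose, against 15.2% and 8.27% of all genes tested, with 16 lower without KO 1. Nt5c3, a nucleotidase that clears pyrimidines as the reticulocyte matures, fell by 0.61 ± 0.10, and the red cell pyruvate kinase gene Pklr, also used in liver, fell from 10.93 ± 0.06 to 10.02 ± 0.48 (mean ± SD, n = 3). Car2 was lower by 0.55, a call lost without WT 1, WT 3 or KO 2, and Trim58 stood at -0.16 and did not pass. Those that rose, Btg2 (0.56 ± 0.11), the autophagy kinase gene Ulk1 (0.34 ± 0.06) and Ypel4 (0.27), are also active outside red cells, and the call of Ypel4 was lost without WT 1, WT 2, HET 1, HET 2, KO 1 or KO 3.

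Early response genes are those whose transcription rises within minutes of a growth factor, stress or stretch signal. Of 178 genes 168 were tested, 55 (32.7%) rose and 10 fell, with a median of 0.19. Of the 55 that rose, 1 was above the filter on the KO arrays alone. The group mean was 8.74 on each WT array and 8.95, 8.97 and 8.92 on the KO arrays, without overlap. Leaving out single arrays gave 34 higher without WT 2, 37 without WT 1, 41 without WT 3 and 49 without KO 3. Centring the arrays on their medians left 40 higher. The number lower was 3 without WT 1, WT 2 or KO 3, 5 without HET 1 or HET 2 and 6 without KO 2.

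Promoter sequences bear on this group, because the serum response factor SRF acts at many such genes through the CArG box, and cyclic AMP or AP-1 factors through short elements of their own. The windows shown here are from RefSeq (GRCm38.p6), lie upstream of the transcription start, run 5′ to 3′ on the strand of the gene, and have the matched motif in capitals. They are those of early response genes that rose and matched a motif on either strand within the 250 bases before the start, and all but that of Srf were added after the values were seen. Cnn2 (0.26) lost its call without WT 1, WT 2, KO 2 or KO 3, and Dusp8 (0.46) without WT 2. The promoter of Dusp8 holds 2 TGACGTCA matches, of which the window shows the one nearer to the start.
Srf, chr17:46556185-46556254, minus strand: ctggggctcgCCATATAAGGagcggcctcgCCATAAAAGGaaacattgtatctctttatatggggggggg
Cnn2, chr10:79988514-79988583, plus strand: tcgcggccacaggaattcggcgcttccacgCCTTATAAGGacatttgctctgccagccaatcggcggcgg
Dusp1, chr17:26508578-26508645, minus strand: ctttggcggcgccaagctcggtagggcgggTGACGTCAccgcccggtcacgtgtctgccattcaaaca
Plk2, chr13:110394952-110395019, plus strand: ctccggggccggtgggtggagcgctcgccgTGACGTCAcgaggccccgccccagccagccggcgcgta
Btg2, chr1:134079284-134079351, minus strand: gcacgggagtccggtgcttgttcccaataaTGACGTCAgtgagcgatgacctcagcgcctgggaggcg
Dusp8, chr7:142095310-142095377, minus strand: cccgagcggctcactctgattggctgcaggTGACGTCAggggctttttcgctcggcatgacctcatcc
Zyx, chr6:42349677-42349743, plus strand: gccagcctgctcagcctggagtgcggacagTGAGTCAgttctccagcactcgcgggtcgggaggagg
The motifs searched were the CArG box, the cyclic AMP element TGACGTCA and the AP-1 element TGACTCA, which appears in the Zyx window as its reverse complement, and none of them overlaps another. Of the 52 early response genes past the test that have a promoter in the table, 4 (7.69%) held a CArG box, 4 (7.69%) TGACGTCA and 3 (5.77%) TGACTCA, and these counts include the lower genes Vil1, F3, Tnfaip3 and Myl9, the last a call lost without any 1 array other than HET 3 or KO 2. Over all 27025 promoters of the table the shares were 1.40%, 1.62% and 4.43%. A CArG box was found in 8 of 29 tested actin targets of SRF, genes listed because SRF regulates them, and in 4 of 100 of the other early response genes. A match describes the letters of the window and is no evidence of binding in these samples.

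Among AP-1 and Egr factors 12 of 38 rose and 2 fell. Of these 12, Egr2 was above the filter on the KO arrays alone, and so had to be higher in KO to be tested. Jun, the central AP-1 subunit, rose from 8.76, 8.44 and 8.62 to 9.93, 10.23 and 9.91 (2.67-fold, adjusted p = 0.00131), and Jund (0.61 ± 0.10) and Fosl2 (0.41) of the same factor family rose as well. Fos, the classical partner of Jun, stood at 7.85, 7.10 and 6.99 in WT and 7.59, 7.87 and 7.54 in KO and did not pass (0.35 ± 0.21, adjusted p = 0.251), with WT 1 inside the KO range. Egr1, a zinc finger factor of the same early wave, was at 8.14, 7.08 and 7.23 in WT and 8.85, 8.90 and 8.38 in KO. Again WT 1 was the highest WT array, and the call of Egr1 was lost when WT 2 and KO 1 were left out together. Srf, whose window above has a pair of CArG boxes, rose from 9.43, 9.43 and 9.44 to 10.06, 9.91 and 9.93 (0.53 ± 0.06, adjusted p = 0.00132). Klf9 and Klf10 were lower by 0.28 and 0.27, calls lost without WT 1, WT 2, HET 1, HET 2, KO 1 or KO 3, and for Klf10 also KO 2.

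Other immediate early genes rose in 15 of 44 cases with 2 lower. Edn1, the peptide endothelin-1, rose from 6.70, 6.88 and 6.83 to 8.16, 8.31 and 7.98 (2.54-fold, adjusted p = 0.000782). Trib1, a pseudokinase that directs protein breakdown, rose by 0.55 ± 0.07 and the stress-induced kinase Plk2 from 8.05, 8.20 and 8.01 to 9.23, 9.08 and 8.80. Gadd45b, an early gene of growth arrest and stress, rose by 1.06, and the immediate early genes Ier2 (0.77 ± 0.14) and Ier3 (0.69 ± 0.11) rose as well. Id2, a target of BMP signals, fell by 0.30 ± 0.06, and Tnfaip3, a brake on NF-kB, was lower by 0.39, a call lost without WT 2.

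Feedback inhibitors of the MAP kinase pathway, which ERK activity induces and which in turn damp it, rose in 11 of 26 cases with 0 lower and a median of 0.32 (6 without WT 2). Dusp1, a phosphatase of the stress-activated kinases, rose from 9.76, 9.68 and 9.71 to 10.67, 10.18 and 10.17 (0.63), Spred1 by 0.61 ± 0.11 and Dusp7 by 0.37 ± 0.06. Dusp6, an ERK phosphatase, was at 10.34, 10.44 and 10.10 in WT and 10.40, 10.45 and 10.11 in KO (0.03 ± 0.12, adjusted p = 0.875). Spry2, whose KO values all lay above the WT values, just missed the test (0.49 ± 0.16, adjusted p = 0.0506).

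The next list holds genes of stretch response and of YAP, the factor that responds to stretch and cell shape, and is not limited to YAP targets. Of its genes 12 of 30 rose with 2 lower and a median of 0.25 (7 higher without WT 1). Ccn1, a matrix protein and standard YAP target, rose from 9.31, 9.11 and 9.52 to 10.59, 10.87 and 10.21 (2.37-fold, adjusted p = 0.00202). Igfbp3, which binds insulin-like growth factors, rose from 9.43, 9.60 and 9.56 to 10.67, 10.41 and 10.34, and Amotl2, an inhibitor of YAP that YAP induces, by 0.65 ± 0.07. Tead2, a DNA-binding partner of YAP and not counted here as a target, rose by 1.07. Ccn2, the other standard target, overlapped between genotypes, with WT 3 at 10.28 and KO 3 at 10.22, and missed the test (0.63 ± 0.20, adjusted p = 0.0502). F3 was lower by 1.11, with WT values of 8.90, 7.96 and 9.72 that were highest on WT 1 and WT 3, as for the parietal endoderm genes, and only the omission of WT 2 left its call standing.

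Actin genes under SRF did not move together. Of 32 tested 7 (21.9%) rose and 4 (12.5%) fell, with a median of -0.02, and without WT 1, WT 2 or KO 2 there were 3 higher. Zyx (0.46 ± 0.10) and Pdlim7 (0.54 ± 0.07), proteins of focal adhesions, and desmin Des (0.64 ± 0.11) rose. Vil1, villin of the endodermal brush border, fell from 11.05, 11.16 and 10.94 to 10.72, 10.55 and 10.28 (-0.53 ± 0.12), and the smooth muscle genes Acta2 (-0.10) and Tagln (-0.21) did not pass. Without WT 1, WT 2 or KO 3 only 1 gene of this list was lower, and 4 were higher without WT 3 or KO 3.

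**Figure D4:**
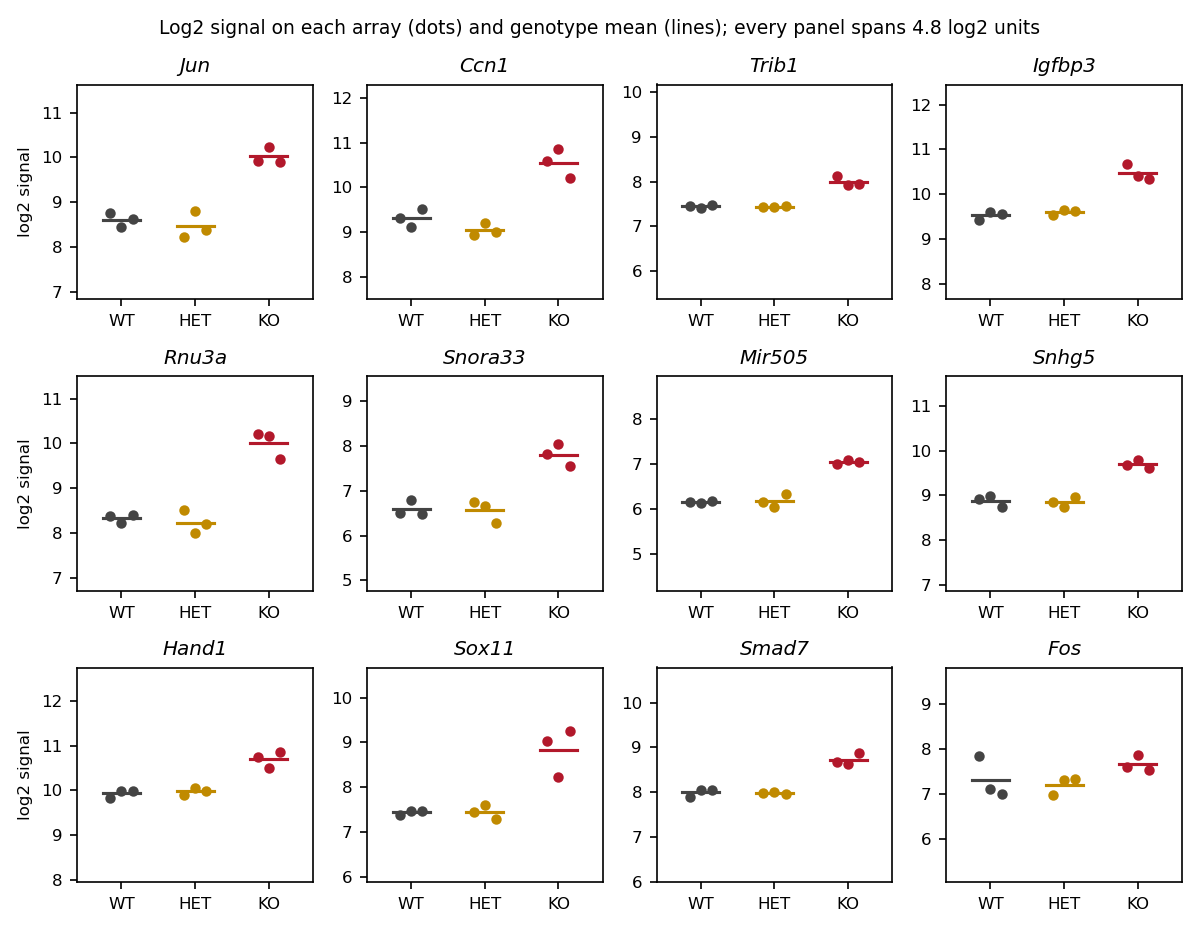
Log2 signal of 12 genes of the early response, short RNA and mesoderm groups on each WT, HET and KO array (dots) with genotype means (lines), each panel spanning the same range. In 11 panels the 3 KO dots lie above all WT dots, whereas the WT and KO dots of Fos overlap.

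Short RNAs were the one group in which no gene fell. Of 373 genes 142 were tested, since most microRNA probe sets were dim, and 40 (28.2%) rose, with a median of 0.27. Of the 40 that rose, 2 were above the filter on the KO arrays alone. The group mean was 7.95, 7.92 and 7.88 in WT and 8.22, 8.30 and 8.22 in KO. Leaving out WT 1 gave 29 higher, WT 3 gave 30, KO 3 gave 39 and KO 1 gave 53. These probe sets read a transcript at the position of a short RNA and do not tell the mature form from its precursor or host transcript. For reference, the median of all genes in the dimmest of the 4 level bins was 0.10.

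Guide RNAs of ribosome assembly came first. Rnu3a, the U3 RNA that starts the processing of ribosomal RNA, rose from 8.38, 8.22 and 8.41 to 10.22, 10.16 and 9.66 (3.19-fold, adjusted p = 0.0011). This was the largest rise past the test among the genes ranked for naming. Of 40 small nucleolar RNAs 17 rose and 36 lay above 0, with a median of 0.38 (11 higher without WT 3). Snora33, of the class that guides pseudouridylation, rose from 6.51, 6.80 and 6.49 to 7.82, 8.04 and 7.56, and Snora62 by 0.86 ± 0.09. Snord55, of the class that guides methylation, rose from 8.45, 8.45 and 8.53 to 9.24, 9.07 and 9.19 (1.61-fold, adjusted p = 0.00132). Snord118, the U8 RNA needed for the large ribosomal subunit, rose by 0.95 ± 0.19. Snora73a overlapped between genotypes and did not pass (0.39 ± 0.19, adjusted p = 0.159).

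Other structured RNAs are spliceosomal, Cajal body, vault and Y RNAs. The minor spliceosome RNA Rnu12 rose from 6.91, 6.73 and 6.85 to 7.53, 7.98 and 7.68 (1.86-fold), and the Cajal body RNAs Scarna13 (0.59 ± 0.09) and Scarna17 (0.61) rose too, making 4 of 4 tested in that list. Vaultrc5, an RNA of vault particles made by RNA polymerase III, rose from 6.95, 7.44 and 6.92 to 8.51, 8.73 and 8.40 (2.72-fold, adjusted p = 0.00102). The catalytic RNA of ribonuclease P, Rpph1, rose by 0.36 ± 0.08, and that of RNase MRP, Rmrp, by 0.30 ± 0.09, the latter lost without any 1 WT array, any 1 KO array or HET 1. In all 3 of 7 vault, Y and other structured RNAs rose, and the Y RNAs Rny1 (0.44, adjusted p = 0.329) and Rny3 (0.11, adjusted p = 0.614) did not pass. Noncoding hosts that carry small nucleolar RNAs in their introns rose in 5 of 7 cases, with Snhg5 at 8.91, 8.98 and 8.74 in WT and 9.68, 9.79 and 9.61 in KO. The host count was 2 without WT 1 or without WT 3 and 3 without WT 2. Gas5, a host with several probe sets that gave 0.42, 0.75, 0.56 and -0.13, lost its call without any 1 WT array.

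Of 300 microRNA precursors 84 were tested and 11 (13.1%) rose, of which 1, Mir17hg, is the host transcript of a microRNA cluster. The count was 26 without KO 1. Mir505 and Mir17hg were above the filter on the KO arrays alone and were tested only because of them, and Mir423 was under it on all WT arrays, so the count of 11 includes genes that had to be higher in KO to be tested and is given as a description. The other 10 matched RefSeq's microRNA table (GRCm38.p6). One mature strand of each is shown to let readers see which seed, the bases 2 to 8 in capitals that pair with targets, each precursor carries.
miR-505-3p, chrX:60394416-60394437, minus strand: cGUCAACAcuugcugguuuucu
miR-665-3p, chr12:109586368-109586387, plus strand: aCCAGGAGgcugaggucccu
miR-341-3p, chr12:109611556-109611576, plus strand: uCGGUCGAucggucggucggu
miR-673-5p, chr12:109572004-109572025, plus strand: cUCACAGCucugguccuuggag
miR-337-3p, chr12:109585850-109585871, plus strand: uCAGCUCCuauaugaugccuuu
miR-423-5p, chr11:77078122-77078144, minus strand: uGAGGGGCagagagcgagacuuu
miR-15a-5p, chr14:61632075-61632096, minus strand: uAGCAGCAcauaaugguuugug
let-7e-5p, chr17:17830366-17830387, plus strand: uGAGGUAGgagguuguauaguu
miR-7a-5p, chr13:58392841-58392863, minus strand: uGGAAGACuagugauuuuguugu
miR-92b-3p, chr3:89227126-89227147, minus strand: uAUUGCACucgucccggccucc
Among all 20 mature strands of the 10 precursors 0 seeds were shared. Mir505 stood at 6.16, 6.13 and 6.17 in WT and at 6.99, 7.08 and 7.05 in KO (adjusted p = 0.000991). Since its WT and HET values lie under the filter, the rise is at least 1.52-fold against the filter level. Mir665, Mir341, Mir673 and Mir337 lie on chromosome 12 between 109572004 and 109611576, within the imprinted cluster whose maternal transcripts include Meg3. Mir341 rose from 8.96, 9.09 and 8.69 to 9.39, 9.57 and 9.54, and Mir665 by 0.91, Mir673 by 0.50 and Mir337 by 0.48. Of the 84 tested probe sets 23 were on chromosome 12, of which these 4 passed. Meg3 was at 10.65, 10.89 and 9.83 in WT and at 11.56, 11.42 and 11.09 in KO (0.90 ± 0.24, adjusted p = 0.0258), lost without KO 1 or KO 2, and Rian, the next transcript of the cluster, overlapped and did not pass (adjusted p = 0.238).

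Mesoderm genes rose in 55 (25.6%) of 215 tested, with 12 lower and a median of 0.16, out of 254 genes. Of the 55 that rose, 3 were above the filter on the KO arrays alone. The group mean was 8.35, 8.33 and 8.41 in WT and 8.49, 8.51 and 8.57 in KO, highest on KO 3. With WT 1 left out 32 rose, with WT 2 40, with WT 3 48, with KO 3 47 and with KO 1 75. After median centring 40 rose and 13 fell.

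Of 39 transcription factors of the lateral and extraembryonic mesoderm 14 rose and 0 fell, with a median of 0.31 (7 higher without WT 1). Of these 14, Foxc2 and Isl1 were above the filter on the KO arrays alone, and so had to be higher in KO to be tested. Hand1, needed for yolk sac mesoderm and its vessels, rose from 9.84, 9.99 and 9.99 to 10.74, 10.49 and 10.85 (1.68-fold, adjusted p = 0.00184). Its relative Hand2 rose by 0.45 ± 0.06, and Twist1, a factor of mesenchyme, from 7.71, 7.89 and 7.86 to 8.43, 8.33 and 8.48. Osr1, of intermediate and lateral mesoderm, rose from 6.75, 6.75 and 7.09 to 8.40, 7.53 and 8.57 (2.47-fold, adjusted p = 0.00567), with KO 2 the lowest KO array. Prrx1, of limb and body wall mesenchyme, rose by 0.88. Foxf1, of the mesoderm next to endoderm, rose by 0.31 ± 0.07, a call lost without WT 1.

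Of 19 Sox factors 5 rose and 0 fell (9 without KO 1). All 3 members of the SoxC family rose: Sox11 from 7.38, 7.48 and 7.46 to 9.04, 8.22 and 9.26 (2.64-fold, adjusted p = 0.00371), Sox4 by 0.75 ± 0.08 and Sox12 by 0.57 ± 0.08. Of 37 Hox genes 18 were bright enough to test and 7 rose with 0 lower. Hoxb9 rose from 7.25, 6.97 and 7.26 to 7.79, 7.62 and 8.06, Hoxb1 by 0.74 ± 0.14 and Hoxb5 by 0.54 ± 0.09. Hoxb4, a factor of early blood, was higher by 0.49 ± 0.13, a call lost without WT 2 or WT 3, and Hoxa9 was too dim to test. The risen genes were 6 of the Hoxb cluster and Hoxa7, whose call was lost without WT 1, WT 2, HET 1, HET 2, KO 2 or KO 3.

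Of 45 Wnt and BMP genes 10 rose and 2 fell (5 higher without WT 1 and 17 without KO 1, and 4 lower without WT 2). Smad7, an inhibitor that TGF-beta and BMP signals induce, rose from 7.89, 8.06 and 8.05 to 8.67, 8.64 and 8.88 (1.66-fold, adjusted p = 0.00127), the Wnt effector Lef1 by 0.76 ± 0.12 and the receptor Fzd7 by 0.40 ± 0.06. Sfrp2, a secreted Wnt modulator, was at 6.96, 6.92 and 6.81 in WT and at 8.17, 7.40 and 8.90 in KO, with a call lost without WT 2 and KO 1 together. Bmp4 stood at 0.18 ± 0.10 and did not pass. In the mesenchymal matrix 5 of 38 genes (13.2%) rose and 3 (7.89%) fell, with a median of -0.05 (2 higher without WT 1, WT 2 or KO 3, 3 higher without HET 1 or HET 2, and 7 lower without KO 1). Of these 5, Mfap5 was above the filter on the KO arrays alone, and so had to be higher in KO to be tested. Fbn2, fibrillin of embryonic tissue, rose by 0.65 ± 0.14, Col14a1 fell by 0.94 ± 0.16, and the abundant Col1a1 and Fn1 stood at 0.12 and -0.05 and did not pass.

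Of 58 vessel genes 14 (24.1%) rose and 7 (12.1%) fell, against 8.27% and 15.2% of all genes tested (9 higher without WT 1 or WT 3, 4 lower without WT 2). Etv2, which starts the endothelial programme, rose from 6.49, 6.26 and 6.61 to 7.12, 7.13 and 7.04 (1.56-fold, adjusted p = 0.00202), and Egfl7, a protein secreted by endothelium, by 0.52 ± 0.07. The apelin system rose in ligand and receptor: Apln from 8.80, 8.69 and 8.97 to 9.97, 9.83 and 9.53 (0.95 ± 0.14), its receptor Aplnr by 0.46, and the second ligand Apela from 6.99, 7.30 and 7.37 to 8.68, 8.21 and 9.25, a call lost without WT 1 and without WT 2 and KO 1 together. Gja5, the gap junction protein connexin 40 of arteries, fell from 8.71, 8.99 and 8.46 to 7.32, 7.14 and 6.69 (3.18-fold, adjusted p = 0.00132). The scavenger receptor Stab2 of sinusoidal endothelium fell from 9.79, 9.88 and 9.59 to 9.14, 8.40 and 8.46 and the VEGF receptor Flt1 by 0.46 ± 0.08. The general endothelial genes Kdr (-0.07 ± 0.07) and Pecam1 (-0.08 ± 0.09) overlapped between genotypes and did not pass.

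For comparison, 3 lists of general cell functions were counted the same way. Of 45 cell division genes 0 rose and 3 (6.67%) fell by limma (median -0.05), and Mki67, the proliferation marker, stood at -0.12 (adjusted p = 0.118). The count was 6 without KO 1, 1 without WT 3 and 0 without WT 1, WT 2 or KO 2. Ribosomal protein genes rose in 6 of 59 cases (10.2%, against 8.27% of all genes tested) with 0 lower (median 0.07). Rpl12 was higher by 0.57 ± 0.11, and 2 or 3 of these genes rose without any 1 WT array. Respiratory chain genes fell in 20 of 78 cases (25.6%) with 0 higher (median -0.11), against 15.2% of all genes tested. The list means of 10.45 to 10.62 lie in the brightest of the 4 level bins, where 24.1% of all genes fell. The complex I subunit Ndufv1 was lower by 0.43 ± 0.05. Leaving out WT 1 gave 6 lower, WT 2 gave 7, WT 3 gave 12, KO 2 gave 13 and KO 3 gave 9.

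By class of transcript, long noncoding RNAs rose in 43 and fell in 1 of 233 cases, against 1005 and 2004 of 12725 protein-coding genes.

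**Figure D5:**
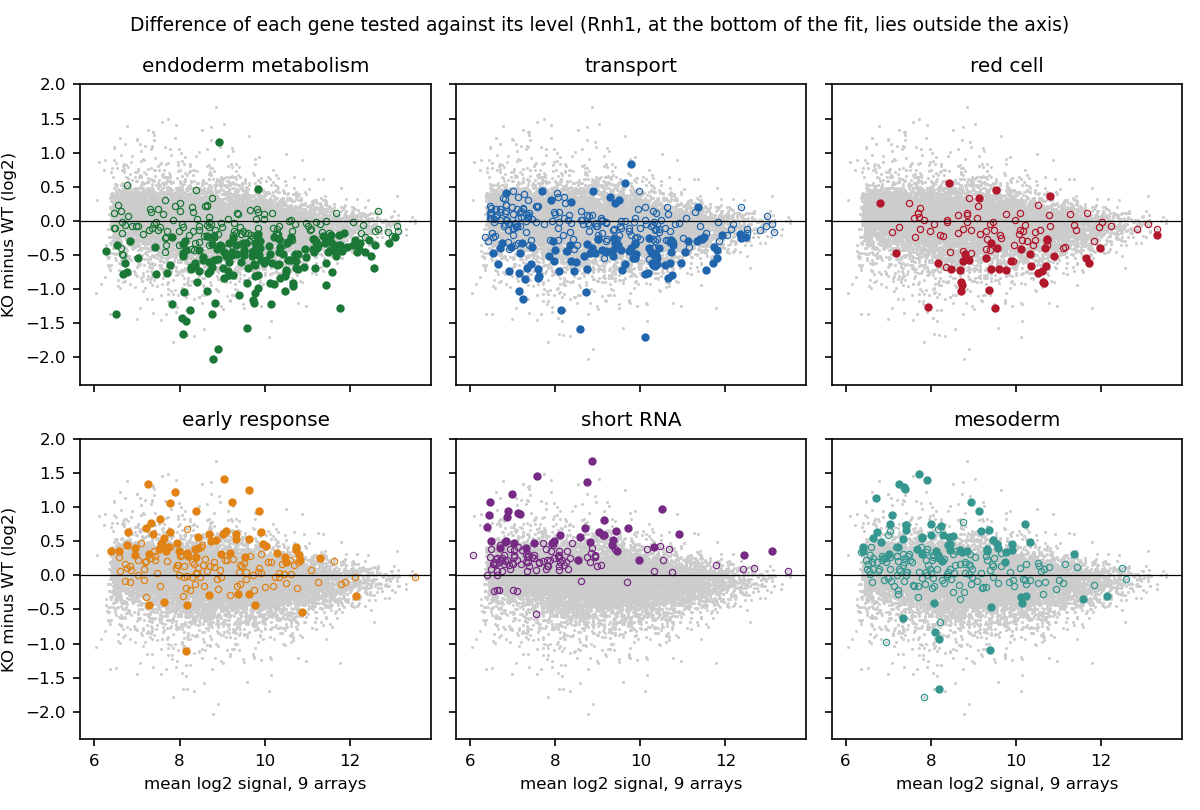
Difference of KO minus WT (log2, vertical axis) against the mean log2 signal of the 9 arrays (horizontal axis) for every gene tested (grey), with the genes of 1 group coloured in each panel, filled where limma's adjusted p was under 0.05 and open otherwise. Falling genes of endoderm metabolism spread from dim to the brightest levels, whereas the short RNAs past the test all lie above 0.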

How the data were processed

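The deposited values are log2 signals, which, per the submitters' processing notes, the authors made with RMA (Affymetrix Expression Console, version 1.2.1.20). The build behind the annotation of the arrays is not given in the sources read here. Of 28350 probe sets, 21780 name 1 gene symbol and were used. For 996 genes with several probe sets, the brightest on average over all arrays was used, with the mean of all as an alternative. Genes above the 40th percentile of an array on at least 3 of 9 arrays were tested with limma 3.58.1 (R 4.3.3) over all genotypes, with Benjamini-Hochberg adjustment over 13207 genes and a threshold of 0.05. The steps were tested on simulated data. The gene lists, their members and the direction counted for each group were chosen with earlier results of these data known. Named genes are Rnh1, the 10 largest rises and 10 largest falls past the test, up to 3 genes of each list past the test in each direction by p, and 2 defining genes of each list whatever their value. Symbols that begin with Gm, LOC, Olfr or Vmn or end in Rik were left out of this ranking and naming. Mir and Snor symbols entered only from the short RNA lists. Alternatives were the filter, the probe set rule, scaling, only the WT and KO arrays, a replicate block, array weights, Xist and Eif2s3y as covariates, and leaving out arrays. Replicate numbers did not pair the samples: deviations of same-numbered WT and KO arrays from their group means correlated at -0.139, -0.227 and 0.361. Sequences are from RefSeq tables (GRCm38.p6). Precision is limited by the number of arrays.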

Additional observations from a re-analysis of the deposited data

Results flagged for a closer look

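Probe sets with more than 1 gene symbol or with no symbol enter no comparison above. Of the 2894 of them past the filter on dim values, 164 (5.67%) were higher and 116 (4.01%) lower in KO by limma at an adjusted p under 0.05. These shares stand beside 8.27% and 15.2% among the genes tested. No gene can be assigned to these differences.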

How the results depend on the processing

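The direction of Rnh1 and of every named gene past the test was kept under all alternatives run. Of 186 named genes past the test, 140 kept their call without any 1 array. Against 1092 genes higher, there were 577 with arrays centred on their medians, 675 with only the WT and KO arrays, 1799 with array weights and 657 with Xist as a covariate. Red cell genes lower numbered 64 with array weights and 20 with Xist as a covariate, against 36. Without 1 array at a time, genes higher ranged from 514 to 1416 and genes lower from 1135 to 2426. The ranges were 126 to 184 for endoderm metabolism lower, 62 to 109 for transport lower, 20 to 55 for red cell lower, 34 to 59 for early response higher, 29 to 53 for short RNA higher and 32 to 75 for mesoderm higher. Rnh1 ranged from -3.84 to -3.55. The causes were not tested. With the replicate number as a block, 1105 genes were higher and 2026 lower, with 179 lower in endoderm metabolism, 101 in transport and 38 in the red cell group, and 54, 47 and 58 higher in early response, short RNA and mesoderm. The replicate block ended the calls of 5 named genes. With 3 arrays per genotype, small differences near the threshold move in and out of the calls, and 5025 genes had an unadjusted p under 0.05. Genes below the filter, 6726 in number, have no call.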
